A study of Phalaenopsis x intermedia with 4 samples.

Results

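Single nucleotide polymorphisms (SNPs) of chromosome 2 that were called in most plants of an orchid cross were described here. A SNP was taken when it lay on chromosome 2, had exactly 2 base alleles and lacked a call (N) in at most 20% of the 92 plant columns, which is at most 18 plants. This rule gave 3556 widely called SNPs out of 13802 SNPs with 2 base alleles on chromosome 2, and out of 115866 entries in the whole table. Of the members, 168 lacked a call in exactly 18 plants and stood just inside the limit, and 158 further SNPs of the chromosome lacked a call in 19 plants and stood just outside it. The median member lacked a call in 6 plants, and 571 members were called in every plant.

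The plants of the table were 90 F1 progeny of P. Intermedia, named PaPe, with P. aphrodite (Pa) and P. equestris (Pe) as parents. The paper itself states a larger number of F1 progeny. Leaf DNA was cut with HinP1I or ApeKI, each combined with HaeIII, and each enzyme pair was sequenced as a library of plate 1 and one of plate 2, which made 4 libraries. The table merged all libraries, so that each plant had 1 genotype call per SNP and no call could be traced to an enzyme or a plate. It held no read counts, and the depth behind a call is unknown. The authors' name for the table also gives an imputation, and the letters do not mark which calls were imputed. The calls, genotype counts and r2 below can therefore include imputed genotypes.

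Genotyping-by-sequencing (GBS) reads short stretches beside restriction sites, so that SNPs come in small groups with long gaps between them. In an F1 cross each progeny plant takes 1 chromosome copy from each parent. Where the parents are opposite homozygotes all progeny are expected to be heterozygous, and where only 1 parent is heterozygous the progeny are expected to be its partner's homozygote or the heterozygote in equal numbers. Linkage disequilibrium (LD) is the tendency of alleles at different SNPs to be inherited together. It is measured here as r2, the squared correlation of allele dosages (0, 1 or 2 copies) between SNPs over the plants. In an F1 the alleles that a parent carries on the same chromosome copy travel together until a crossover separates them, and the copies drawn from the different parents are independent.

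Chromosome 2 held many more widely called SNPs than its number of SNPs would give. It had 12.2% of the SNPs of chromosomes 1 to 19 but 46.5% of their 7644 widely called SNPs. Of its SNPs 25.8% were widely called, against 4.10% of the 99715 SNPs of the other chromosomes, where the share ran from 0.306% on chromosome 19 to 12.8% on chromosome 14. Chromosome 1, with 24121 SNPs, had 1095 widely called ones, and chromosome 5 had 591. The plants without calls were unevenly spread. In 30 progeny between 69.3% and 96.3% of calls over all SNPs were missing, and in the other 60 progeny at most 40.3% were. At the members the former lacked between 2.56% and 49.9% of calls (median 11.3%) and the latter between 0.253% and 26.6% (median 2.77%). Pa lacked 1.77% and Pe 0.309%.

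The members reached from S2_247572, 0.248 Mb from the start of the chromosome, to S2_224129115 at 224 Mb, and no stretch was without them. Windows of 5 Mb held between 19 and 132 members, with a median of 76. The longest gap between neighbours was 1.71 Mb, from S2_103826986 to S2_105539323. On a fine scale the members were grouped. The median distance between neighbours was 73 bp, and 53.0% of neighbours were under 100 bp apart. Members under 1 kb from a neighbour were joined into places, which gave 1398 places with a median of 2 members, 509 of them with a single member. The median distance between places was 93.5 kb. The fullest place held 14 members over 1112 bp, from S2_29985172 to S2_29986284.

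The most members were counted in the window from 155 to 160 Mb, which held 132 in 42 places and began with S2_155084777. The next was the window from 15 to 20 Mb, with 120 members and S2_15118522 as its first. The windows from 30 to 35 Mb and from 195 to 200 Mb held 116 each and began with S2_30187393 and S2_195281745. The window from 45 to 50 Mb, which began with S2_45131399, held 114. These windows were spread along the chromosome, and their first members belonged to 4 parental classes. S2_155084777 was A in Pa and C in Pe, and its progeny were 22 A, 33 heterozygous (M) and 19 C. S2_45131399 was heterozygous in Pa only, and its progeny were 36 C, 53 heterozygous (Y) and 1 T.

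The number of members per Mb differed little between the lower and the upper part of the chromosome, whereas the number of SNPs with fewer calls differed strongly. Below 105 Mb the chromosome had 11348 SNPs, or 108 per Mb, of which 1519 (13.4%) were widely called. From 105 Mb on it had 2454 SNPs, or 20.6 per Mb, of which 2037 (83.0%) were widely called. The number of members per Mb was 14.5 below and 17.1 above. The share ranged from 5.12% to 32.8% in the 21 windows below 105 Mb and from 55.6% to 97.9% in the 24 windows above it, so that these ranges did not overlap. The rule that set 105 Mb was chosen after the windows had been seen, and it takes the window edge that separates the shares best. On chromosome 1 the same split gave 1.86% widely called SNPs below 105 Mb and 34.7% above it, with 211 and 12.9 SNPs per Mb.

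**Figure D1:**
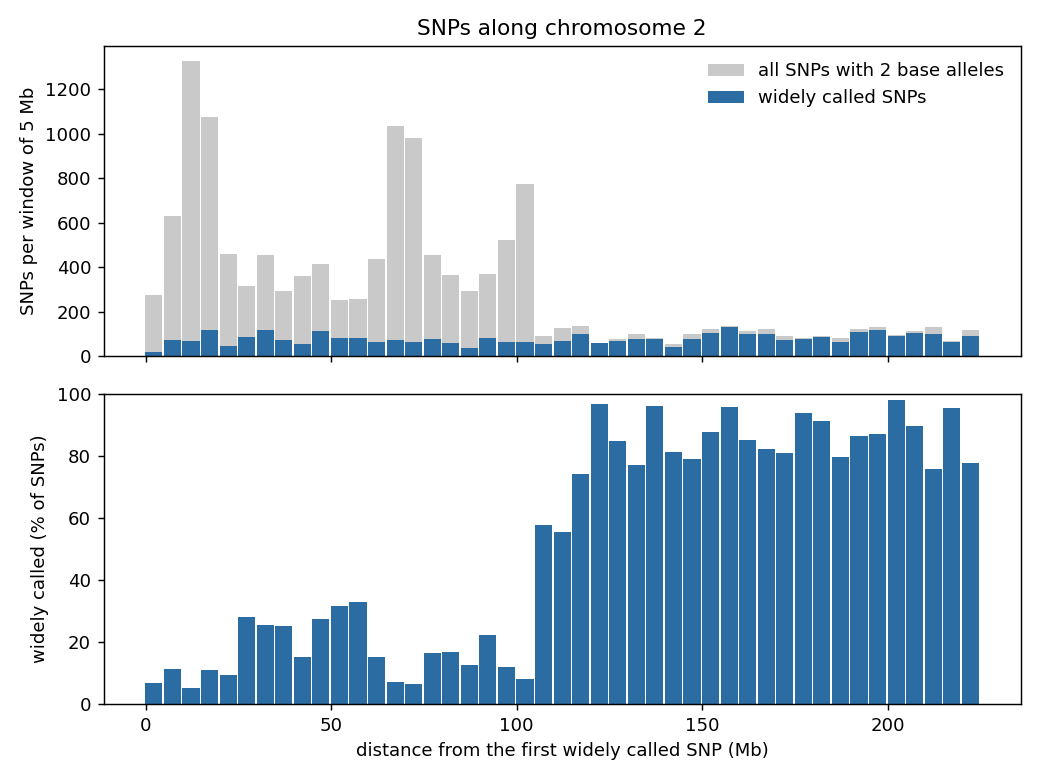
Number of SNPs (top) and share of SNPs that were widely called (bottom, %) in windows of 5 Mb, cut by chromosome position and drawn at their distance from the first widely called SNP (Mb), which lies at 0.248 Mb; grey bars are all SNPs with 2 base alleles and blue bars the members. The grey bars drop near position 105 Mb while the blue bars stay between 19 and 132, so that the share rises from at most 32.8% to at least 55.6%.

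The base changes were much like those of widely called SNPs elsewhere. Transitions (A with G, or C with T) made up 58.3% of members, 57.8% of the 4088 widely called SNPs of other chromosomes and 60.9% of the 10246 remaining SNPs of chromosome 2. C with G made up 9.76%, 10.7% and 8.15% of these sets, and A with T made up 7.70%, 8.68% and 10.5%. The median minor allele frequency of members was 0.307, and the lowest was 0.05.

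Parental genotypes put the members into classes. Pa and Pe were called opposite homozygotes at 1647 members (46.3%). Pe alone was heterozygous at 836 (23.5%) and Pa alone at 515 (14.5%). Both parents had the same homozygous call at 474 members (13.3%), both were heterozygous at 13 (0.366%), and 71 (2.0%) lacked a parental call. Among the 12 other chromosomes with at least 100 widely called SNPs, opposite homozygotes made up 32.0% to 50.9% and SNPs heterozygous in Pe alone 16.7% to 30.3%, so that chromosome 2 lay inside both ranges. Pe was heterozygous at 25.5% of its called members and Pa at 15.2%. From 105 Mb on, 48.3% of members were opposite homozygotes, against 43.7% below.

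Heterozygous progeny calls were fewer than the parents' calls predict in every class but that of the same homozygote, where they should not occur. Over all members 23.7% of progeny calls were heterozygous, and 56.3% of calls at members with both parents called were genotypes that these parents can produce. Between plants this allowed share was 56.1% ± 3.17 (SD, n = 90), with a lowest value of 47.7%, a median of 56.0% and a highest of 63.2%. The heterozygous share was 13.1% in PaPe93, the lowest, 23.2% in the median plant and 34.7% in PaPe18, the highest. PaPe93 also lacked the most calls at the members (49.9%), and PaPe62 lacked the fewest (0.253%).

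At the members where the parents were opposite homozygotes, only 30.9% of 135373 progeny calls were heterozygous. The other calls were split almost evenly, 35.9% being the homozygote of Pa and 33.2% that of Pe. The SNPs of this class differed widely among themselves. The median SNP had 24.7% heterozygous calls, the 10th percentile 1.11% and the 90th 75.6%. No progeny plant was heterozygous at 142 of them (8.62%), at least 90% of calls were heterozygous at 51, and all were at 1. That SNP was S2_196150841, T in Pa and C in Pe, with 90 heterozygous progeny (Y). S2_35831982 and S2_91345656 had 89 heterozygous progeny and 1 homozygote each. At the other end, S2_3185543 (A in Pa, G in Pe) had 49 G, 41 A and no heterozygous progeny, S2_12288719 had 62 G and 28 A, and S2_16321826 had 78 T and 12 G. The first member, S2_247572, was of the same kind, with 49 T, 1 heterozygous (Y) and 40 C. The last, S2_224129115, had 43 A, 14 heterozygous (R) and 17 G.

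Where only 1 parent was heterozygous, 2 of the 3 genotypes are allowed and not 1 as at opposite homozygotes, so that the allowed shares of these classes cannot be set against each other. With Pe alone heterozygous 59.0% of 69636 progeny calls were the homozygote of Pa and 20.2% were heterozygous, so that 79.2% were allowed. With Pa alone heterozygous the homozygote of Pe made up 59.7% of 42986 calls and heterozygotes 23.1%, so that 82.8% were allowed. All calls were allowed at 27 of the 836 SNPs of the former kind and at 23 of the 515 of the latter. S2_8341496, heterozygous (Y) in Pa and C in Pe, had 47 C and 43 heterozygous progeny. S2_25285835 and S2_25285858, neighbours in a place, both had 44 homozygotes and 46 heterozygotes. With Pe heterozygous the cleanest members were S2_7994658 with 57 C and 31 heterozygous (M), S2_29985172 with 62 and 28, and S2_30746616 with 64 A and 26 heterozygous (W). These 3 had no call that the parents cannot make, yet each had more homozygotes than heterozygotes.

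The members with the most calls that the parents cannot make had the opposite pattern. At S2_158398233, A in Pa and heterozygous in Pe, 57 progeny were C, 33 were A and none was heterozygous. S2_174128663 had 56 G, 30 A and no heterozygote, and S2_192883137 had 56 T, 1 heterozygote and 33 G. With Pa heterozygous, S2_102081887 had 76 A and 14 heterozygous progeny where G and the heterozygote were expected, S2_30279107 had 61 G, 12 heterozygotes and 8 T, and S2_161829554 had 61 T and 28 G. At each of these SNPs the commonest progeny genotype was a homozygote that needs the same allele from both parents, and 1 parent was called without that allele. This homozygote is the only genotype not allowed there, so its high count follows from how these SNPs were picked.

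At members with the same homozygous call in both parents 73.3% of 39296 progeny calls were that genotype and 7.77% were heterozygous. None of these 474 SNPs had only allowed calls. The fewest departures were at S2_5930126 and S2_5930146, with 80 G, 1 heterozygous call and 4 of the other homozygote each, and at S2_27411978, with 71 T, 2 heterozygotes and 3 G. The most were at S2_130650005, A in both parents with 74 T and 16 A progeny, at S2_162179160, C in both parents with 54 T and 35 C, and at S2_32369937, A in both parents with 53 G and 37 A. At the 13 members heterozygous in both parents every genotype is allowed, and 31.3% of their 1062 progeny calls were heterozygous.

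**Figure D2:**
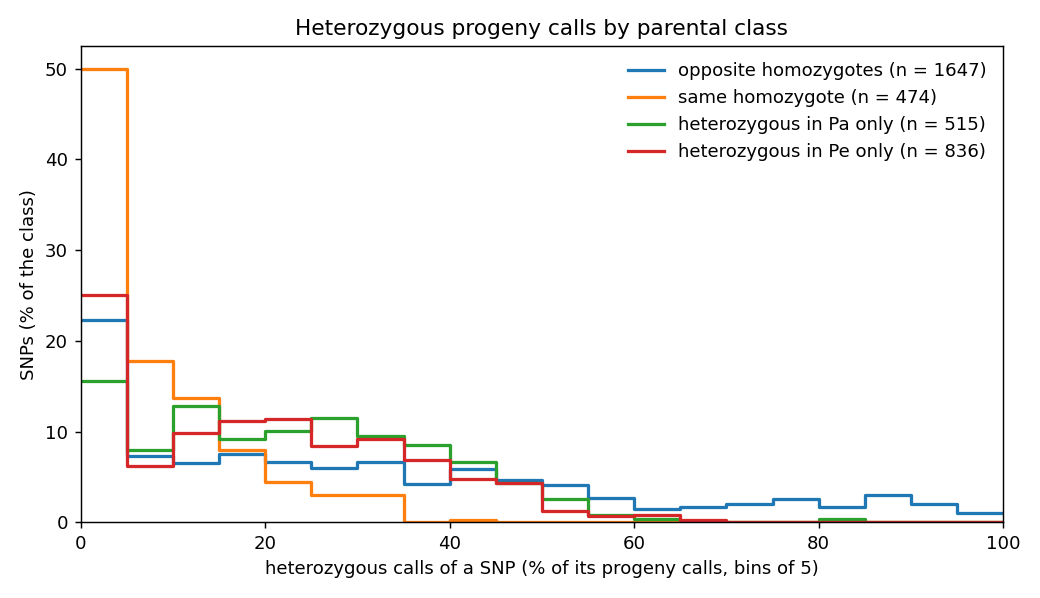
Share of progeny calls that were heterozygous at a SNP (x axis, % in bins of 5) against the share of the SNPs of its parental class (y axis, %), for the 4 large classes of members. Opposite homozygotes (n = 1647), which should lie at 100%, spread over the whole axis with a median of 24.7%, and SNPs heterozygous in Pe only (n = 836) or in Pa only (n = 515), which should lie near 50%, have medians of 19.05% and 22.4%.

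The same departures were found on other chromosomes, and the size differed slightly. Shares were compared within each of the 90 progeny between members and widely called SNPs of other chromosomes. Two-sided sign-flip permutation tests over plants were used (100000 permutations), with Benjamini-Hochberg adjustment over 6 tests. These tests measure the spread between plants at fixed sets of SNPs, and not the spread between SNPs or chromosomes. At widely called SNPs of chromosome 1 alone, 63.1% of progeny calls were allowed below 105 Mb and 55.3% above it. The allowed share was 2.92 percentage points lower on chromosome 2 (56.1% against 59.1%), and it was lower in 88 of 90 plants (permutation p = 1e-05, the smallest these permutations can give, adjusted p = 1.2e-05). The lower value was not found along the whole chromosome. Over all progeny calls, 59.9% were allowed at members below 105 Mb and 53.85% at those above it. The parts were not tested against other chromosomes. Heterozygous calls were lower by 1.11 percentage points (23.4% ± 4.78 against 24.5% ± 5.19, SD) in 67 of 90 plants (permutation p = 1e-05, adjusted p = 1.2e-05). The size of both differences depended on the limit on missing calls. With N in at most 10% of plants they were -6.05 points for the allowed share and -5.29 points for the heterozygous share (permutation p = 1e-05 for each, n = 90). With N in at most 30% of plants the allowed share differed by -0.109 points (permutation p = 0.552, n = 90) and the heterozygous share by 0.240 points, in the other direction (permutation p = 0.168, n = 90). With 1 SNP a place the heterozygous share differed by -1.77 points, and in the plants with most calls by -0.402 points.

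Within the parental classes the differences ran the same way but were unequal in size. At opposite homozygotes 30.5% of a plant's calls were heterozygous on chromosome 2 and 33.3% elsewhere, a difference of -2.82 points with the lower value on chromosome 2 in 78 of 90 plants (permutation p = 1e-05, adjusted p = 1.2e-05). Where Pe alone was heterozygous the allowed share was 79.1% against 81.4%, a difference of -2.32 points (72 of 90 plants lower, permutation p = 1e-05, adjusted p = 1.2e-05). Where Pa alone was, it was 82.7% against 83.4%, a difference of -0.756 points (55 of 90 plants lower, permutation p = 0.00119, adjusted p = 0.00119). Along the chromosome, members below 105 Mb had 25.2% heterozygous calls in a plant and those above it 22.1%, and the former value was higher in 82 of 90 plants (permutation p = 1e-05, adjusted p = 1.2e-05). By window the heterozygous share ran from 13.7% between 135 and 140 Mb to 33.1% between 95 and 100 Mb. The tests within classes and along the chromosome were chosen after the data had been seen, and they too measure only the spread between plants.

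Segregation was tested at each SNP by an exact two-sided binomial test, adjusted over all SNPs of the table with such a test. With 1 or both parents heterozygous, heterozygotes were compared with the allowed homozygotes against 1:1. Of 1364 members tested, 1046 departed at an adjusted p under 0.05, where 56.5% of the 39221 SNPs tested in the whole table did. At 1032 of them heterozygotes were too few, which is 75.7% of the members tested, beside 29.1% over the whole table and 70.9% over widely called SNPs of other chromosomes. The share among members was thus close to that of widely called SNPs on the other chromosomes. Heterozygotes were too many at 14 members. The median share of heterozygotes among the 2 expected classes was 24.4%, with 22.8% where Pe was heterozygous (647 of 836 members with too few) and 26.9% where Pa was (374 of 515). Members of a place are neighbours on the same chromosome and are not independent.

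The lowest Mendelian p-values came from SNPs with nearly 1 genotype. S2_138022302, T in Pa and heterozygous (K) in Pe, had 83 T, 6 G and no heterozygous progeny (exact binomial p = 2.07e-25, adjusted p = 2.95e-21). S2_138022452 had 82 C and 4 A, S2_157462983 had 82 A and 8 T, and S2_202791915 had 81 A, 1 heterozygote and 5 G. The fifth, S2_136789871, was heterozygous (K) in both parents and in 87 of 90 progeny, and the other 3 were G.

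The ratio of the 2 most frequent genotypes, whichever they were, departed from 1:1 at 2074 of 3556 members, where 42.1% of all 113517 SNPs of the table and 57.1% of the widely called SNPs of other chromosomes did. The share among members (58.3%) was close to that of the other widely called SNPs. At 1711 members (48.1%) these 2 genotypes were the opposite homozygotes, which no pair of parental calls predicts for an F1, and 47.3% of widely called SNPs elsewhere were alike in this. No progeny plant was heterozygous at 448 members (12.6%), and at 13.1% of widely called SNPs elsewhere.

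LD was weak even at short distances. Members of the same place had a mean r2 of 0.346 over 5183 pairs, with 21.8% of pairs at an r2 of 1 and 48.2% under 0.1. The parental class separated these pairs. Pairs of the same class had a median r2 of 0.880 and pairs of different classes 0.0353. Under 100 bp apart, pairs of the same class had a median of 1 (1880 pairs), and from 100 bp on a median of 0.0809 (574 pairs). Of the 470 pairs of a place with 1 SNP heterozygous in Pa only and 1 in Pe only, 90.4% had an r2 under 0.1, and none had an r2 of 1.

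Between places, for which the member with the fewest missing calls stood for each place, the mean r2 was 0.102 at 1 to 50 kb (558 pairs), 0.0755 at 50 kb to 1 Mb (8668 pairs) and 0.0263 at 1 to 10 Mb (77445 pairs). Beyond 10 Mb it was 0.0140 (887916 pairs), and with other chromosomes 0.0142 (2266844 pairs). Independent SNPs in 90 plants with all calls would have a mean r2 of about 0.0112. The medians were far lower, 0.0178 at 1 to 50 kb and 0.00633 beyond 10 Mb. The mean at 50 kb to 1 Mb was inside the range of the 15 other chromosomes with at least 30 places, 0.0372 to 0.181, and that beyond 10 Mb was inside 0.0132 to 0.0258.

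The parental classes, compared after the data had been seen, separated the pairs sharply. At 50 kb to 1 Mb the mean r2 was 0.239 where both SNPs were heterozygous in Pe only (565 pairs) and 0.205 where both were heterozygous in Pa only (180 pairs). Where 1 was heterozygous in each parent it was 0.0260 (591 pairs), and for pairs of opposite homozygotes 0.0394 (1591 pairs). On the other chromosomes the corresponding means were 0.235, 0.213, 0.0195 and 0.0339. Of the pairs heterozygous in Pe only, 45.8% had an r2 of at least 0.2, and of the pairs with 1 in each parent 1.52% had. In both parents the LD had fallen by distances of a few Mb. The mean was 0.126 at 1 to 2 Mb in Pe and in Pa, 0.0676 and 0.0653 at 2 to 5 Mb, and 0.0239 and 0.0234 at 5 to 10 Mb. A SNP of the opposite homozygotes and one heterozygous in Pe only had a mean of 0.0844 at 50 kb to 1 Mb (1890 pairs), above that of such a SNP with one heterozygous in Pa only (0.0391, 1016 pairs).

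**Figure D3:**
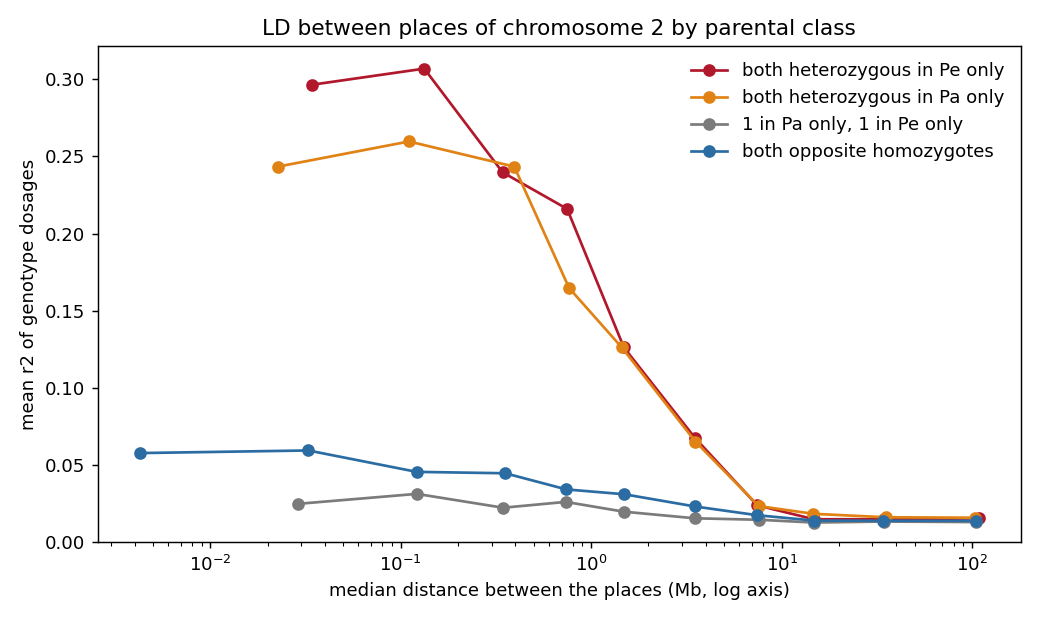
Mean r2 of genotype dosages (y axis) against the median distance between places of chromosome 2 (x axis, Mb, log axis), by the parental classes of the pair; points are distance classes with at least 10 pairs. Pairs heterozygous in the same parent start between 0.24 and 0.31 and reach 0.0239 (Pe) and 0.0234 (Pa) at 5 to 10 Mb, while pairs with 1 SNP heterozygous in each parent are at most at 0.0314.

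LD differed along the chromosome. Within windows of 5 Mb the mean r2 was highest from 220 to 225 Mb (0.115) and from 25 to 30 Mb (0.113), and 0.0952 from 195 to 200 Mb. It was lowest from 75 to 80 Mb (0.0152). All 9 windows between 65 and 110 Mb were at or under 0.0283, and the median window was at 0.0365. Neighbouring windows had a median of 0.0202, with the highest value, 0.0598, between the windows from 205 and from 210 Mb. The 946 pairs of windows further apart had a median of 0.0139 and a highest value of 0.0305, between 25 to 30 Mb and 145 to 150 Mb.

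**Figure D4:**
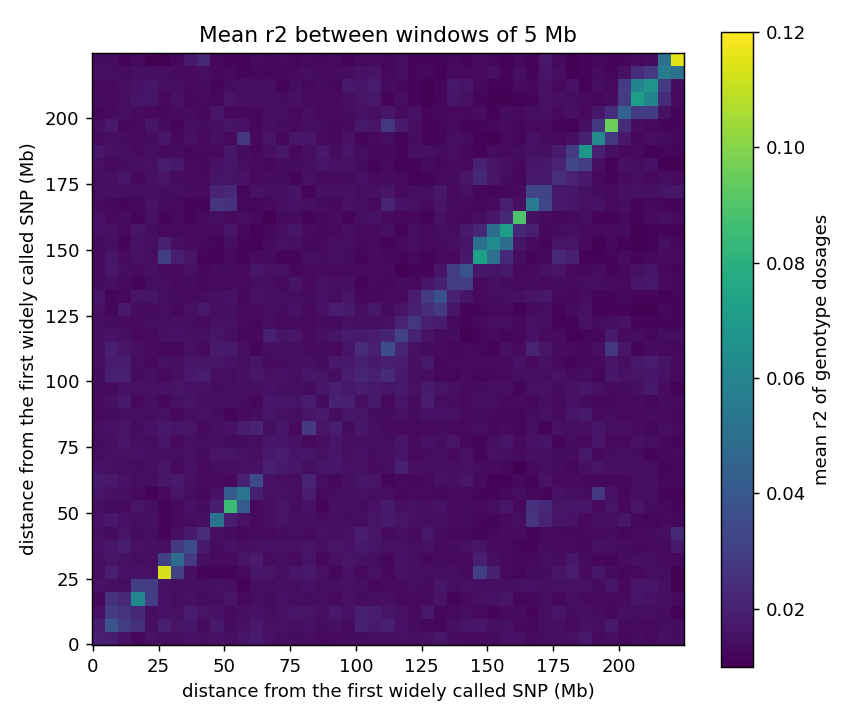
Mean r2 of genotype dosages between places in windows of 5 Mb (colour), cut by chromosome position and drawn at their distance from the first widely called SNP (Mb). The bright cells lie on the diagonal, from 0.0152 to 0.115, with a dim stretch between positions of about 65 and 110 Mb, and off the neighbouring windows no cell is above 0.0305.

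The best partner of a place, the place with the highest r2 among all widely called SNPs of chromosomes 1 to 19, was on chromosome 2 for 983 of the 1397 places with a partner (70.4%). Of all 3021 places 46.3% were on chromosome 2. On the 15 other chromosomes with at least 30 places the share of places with a best partner on the same chromosome was 13.3% to 48.7%, and each of these held at most 13.7% of all places. The share rose with the r2 of the best partner. It was 44.0% of 298 places whose best r2 was under 0.2, 62.9% of 383 places at 0.2 to 0.3, 79.0% of 333 places at 0.3 to 0.5 and 90.9% of 383 places from 0.5 on. In the lowest of these groups the median distance to a best partner on chromosome 2 was 43.9 Mb, and in the highest it was 0.758 Mb. The share was 80.7% for places heterozygous in Pe only, 75.0% for Pa only, 68.7% for the same homozygote and 62.9% for opposite homozygotes. Chromosome 1 held the best partner of 105 places (7.52%) and chromosome 5 of 65 (4.65%). Both were below the share of all places on these chromosomes, 13.7% and 7.81%. With 70.4% of best partners on chromosome 2, the shares left for other chromosomes are low together, so this is no result about chromosomes 1 and 5.

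A partner within 2 Mb at an r2 of at least 0.5 was found for 297 places (21.2%). Of 86671 pairs under 10 Mb apart 698 reached this value, of 887916 pairs further apart 37 did, and of 2266844 pairs with other chromosomes 152 did. The last belonged to 84 places of chromosome 2, with 56 pairs on chromosome 1 and 40 on chromosome 5. These pairs leave out chromosome 2 as a partner, so the places outside it are the base to set them against. Chromosome 1 held 415 and chromosome 5 held 236 of the 3021 places, of which 1398 were on chromosome 2. Among these 84 places, 48 also had a partner within 2 Mb at 0.5 or more, and 18 had no partner within 2 Mb at 0.1 or more.

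Of the pairs over 10 Mb apart, the strongest was S2_91015014 with S2_127707335, which lay 36.7 Mb from each other and had an r2 of 0.886 in 82 plants. Their classes were called differently, with 51 A, 1 heterozygous and 30 T progeny at the former and 56 C, 34 heterozygous and 0 T at the latter. S2_139100239 and S2_190284340 were 51.2 Mb apart with an r2 of 0.775, and S2_117339357 and S2_196288611 79.0 Mb apart with an r2 of 0.732. The next pairs were S2_69270713 with S2_114496920 (0.686) and S2_13912069 with S2_129436923 (0.667). Among the plants with most calls, of which 54 to 60 were called at both SNPs, the r2 of these 5 pairs lay between 0.584 and 0.856. Within 2 Mb of it S2_190284340 had no SNP above 0.0586, and S2_196288611 had one at 0.855.

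With other chromosomes the strongest pair was S2_76584965 and S12_14157940, with an r2 of 0.957 in 90 plants and of 1 in the 60 with most calls. S2_76584965 had 46 C and 44 heterozygous progeny, close to the ratio its parents predict, and its highest r2 within 2 Mb on chromosome 2 was 0.0542. S12_14157940 likewise had none above 0.0710 near it. S14_9074078 was in LD with S2_64479847 (0.901) and S2_65499020 (0.839), which lie on the same stretch of chromosome 2 and had an r2 of 0.860 with a neighbour there. At S2_64479847 the progeny were 45 G, 1 heterozygous and 40 T, and at S2_65499020 they were 45 A and 45 heterozygous. S2_65973355 had an r2 of 0.878 with S5_39927482, and none above 0.0206 within 2 Mb. S2_111433563 had 0.839 with S8_8237747, and none above 0.0593 within 2 Mb.

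S2_195281745 is the only SNP of chromosome 2 among those that the study associated with flower colour, and its surroundings were examined in detail. It has the alleles G and C. Pa was C and Pe heterozygous (S), and the progeny were 50 G, 39 C and 0 heterozygous, with 1 plant not called. The homozygote G is not expected from a C parent. In the 60 plants with most calls 33 were G and 27 C, and in the 30 with few calls 17 were G and 12 C. It shared its place with S2_195281884, 139 bp further on, where Pa was A, Pe heterozygous (R), and the progeny 51 G and 39 A. All 89 plants called at both SNPs were either G and G or C and A, an r2 of 1. The third SNP of the place was 513 bp from it. At S2_195282258, heterozygous in Pa only, the progeny were 53 A and 29 G with no heterozygote, and the r2 with S2_195281745 was only 0.0250 in 82 plants (Spearman's rho -0.158, permutation p = 0.173).

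The r2 of S2_195281745 with each of 7642 widely called SNPs was tested by 100000 permutations of the plants, with Benjamini-Hochberg adjustment over all of them. An adjusted p under 0.05 was reached by 77 SNPs, which is 1.01% of those tested. Of them 24 lay on chromosome 2 (0.675% of 3554 tested), 50 on chromosome 5 (8.46% of 591) and 3 on chromosome 1. These SNPs lay in 15, 30 and 2 places. On the other chromosomes the highest r2 was 0.159, on chromosome 12, and no SNP was called. The lowest r2 called was 0.145.

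Within 2 Mb on chromosome 2 the SNPs called outside its own place all lay on the lower side. Of 17 members from 1 kb to 1 Mb below S2_195281745, in 6 places, 13 were called and the median r2 was 0.272. Of 27 members in 9 places from 1 kb to 1 Mb above it none was called, and the median was 0.0152. In the nearest place above, the rarer homozygote was found in few plants, which limits the r2 that can be reached there. From 1 to 2 Mb away 3 of 20 were called below and 0 of 26 above. From 2 to 5 Mb away 0 of 70 were called below and 2 of 68 above.

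The r2 was highest in the nearest place below, but it did not fall evenly with distance beyond it. S2_194100121, 1182 kb below, had an r2 of 0.523 in 89 plants, and S2_194295433, 986 kb below and heterozygous in Pe only, had 0.511 in 87 plants (Spearman's rho 0.757, permutation p = 1e-05). Of the plants with G at S2_195281745, 45 were A, 2 heterozygous and 2 G at S2_194295433, and of those with C, 5 were A, 18 heterozygous and 15 G. Plants with C were thus spread over the heterozygote and the homozygote G. At S2_194661430, 620 kb below, the r2 was 0.444 in 83 plants. There all 47 plants with G were G, and the 36 with C were 13 G, 9 heterozygous and 14 A. The nearest place below was 360 kb away. In it S2_194922030 had an r2 of 0.767 in 87 plants (Spearman's rho 0.872, permutation p = 1e-05, adjusted p = 0.00144 for the r2), S2_194921903 and S2_194921956 had 0.698, and S2_194922056 had 0.490. At S2_194922030, A in Pa and G in Pe, 39 of the plants with G were G, 9 were heterozygous and 1 was A, whereas 36 of those with C were A and 2 were G.

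Members of the same places could be without LD to S2_195281745. S2_194295345, heterozygous in Pa only and in the place of S2_194295433, had an r2 of 0.00316, and S2_194295352 and S2_194295353, with 76 heterozygous progeny each, had 0.00373. Alone in its place, S2_194838491, heterozygous in Pa only, was at 0.0671 (adjusted p = 0.552 in the permutation test). By contrast, S2_194304371, S2_194304368 and S2_194304380, at 0.233 to 0.272, were called, and so were S2_194480344 and S2_194480351, at 0.244. Their adjusted p was at most 0.00255 in the permutation test.

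Above S2_195281745 the nearest place, 30 kb away, held 6 members with an r2 of 0.0855 to 0.111, the highest from 1 kb to 1 Mb above it (lowest adjusted p = 0.123 in the permutation test). These had 71 progeny of 1 homozygote and 8 or 9 of the other. With such uneven counts the r2 with S2_195281745 cannot be high, so the low values do not show that LD was absent. The rarer homozygote of S2_195311554 stood in 9 plants with G at S2_195281745 and in 0 with C. At S2_195311661 these counts were 8 and 0. Further on, S2_195556190 was at 0.0146, S2_195563579 at 0.0159 and S2_195927339, heterozygous in Pe only, at 0.0293. S2_196189500 and S2_196189515, heterozygous in Pe only, were near the predicted ratio, with 45 homozygotes and 43 or 44 heterozygotes, and had an r2 of 0.0139 and 0.0152. S2_196150841 was heterozygous in all progeny and has no r2. The members called above 1 Mb were S2_197694389, 2413 kb away, with an r2 of 0.412, and S2_199963449, S2_213497444 and S2_214948220, with 0.161 to 0.174. Beyond 5 Mb below there were 3, namely S2_65973355 at 0.373, S2_24837369 at 0.250 and S2_105539323 at 0.155.

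**Figure D5:**
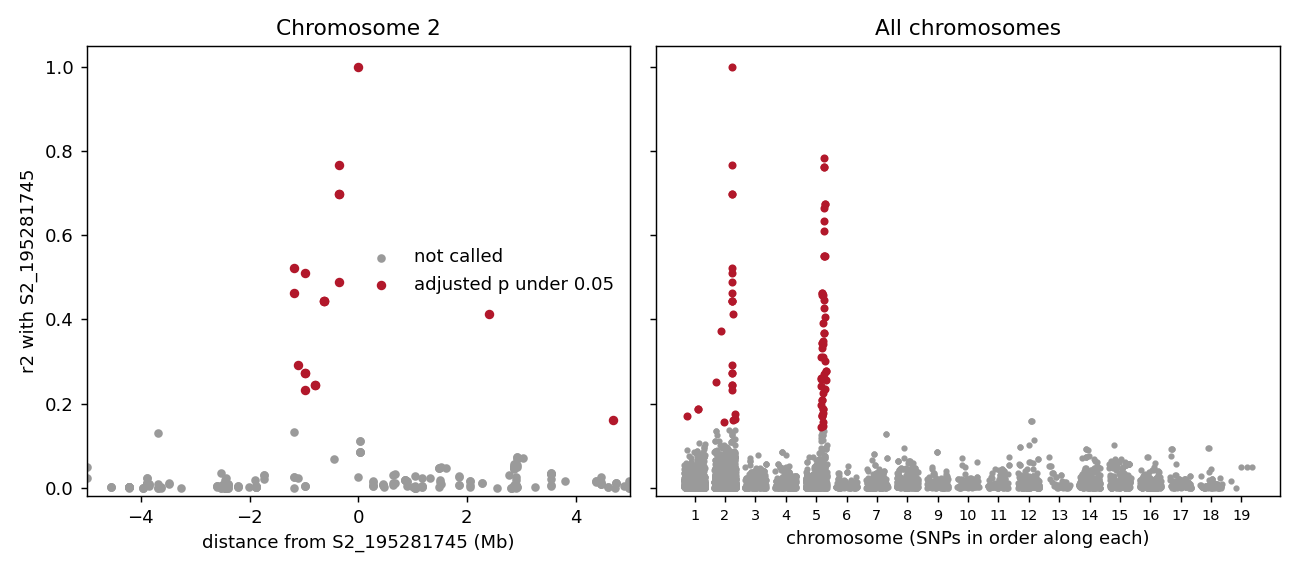
r2 with S2_195281745 (y axis) of widely called SNPs against the distance on chromosome 2 (left, Mb) and by chromosome, with the SNPs in order along each (right); red points have an adjusted p under 0.05 in the permutation test. On the left the red points lie between 0.3 and 1.2 Mb below the SNP and at its own place, with single ones above 2 Mb, and on the right they stand on chromosomes 2 and 5, apart from 3 on chromosome 1.

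The partners on chromosome 5 lay between 37.5 and 47.2 Mb. The highest r2 were those of S5_43867748 (0.783 in 82 plants), S5_43813578 and S5_43813590 (0.761 in 77 plants), S5_45398430 and S5_45398475 (0.674 in 75 plants), S5_43458644 (0.666), S5_43788074 (0.635), S5_43458622 (0.611), and S5_43458569 and S5_43458587 (0.550 each). Apart from S5_43867748, all were heterozygous in Pe only. Of the SNPs of chromosome 5 that the study associated with flower colour, S5_45345022 (0.550), S5_45647571 (0.405) and S5_46455357 (0.256) were also called, whereas S5_10776122 (0.00146), S5_23606179 (0.0276) and S5_24984925 (0.0152) were not. Since these SNPs were chosen for association with flower colour in this cross, their correlations are not independent of that choice. The paper states more F1 progeny for its genotyping and phenotyping than the 90 progeny columns here. Which of its plants entered that association is not known here.

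Called SNPs of the lower side of chromosome 2 also had LD with these partners. All lower-side SNPs compared here were themselves partners of S2_195281745, so their LD with chromosome 5 is not independent of it. Lower-side members that were not called were not compared. S2_194922030 had an r2 of 0.669 with S5_43867748 and 0.602 with S5_43813578, S2_194661430 had 0.329 and 0.259, S2_194295433 had 0.382 and 0.404, and S2_194100121 had 0.434 and 0.458. With S5_39927482, which lies nearer to the start of chromosome 5, S2_194100121 had 0.622, S2_194295433 0.535 and S2_194922030 0.460. The order along chromosome 2 was thus not the same for each SNP of chromosome 5. S2_195282258, in the place of S2_195281745 but heterozygous in Pa only, had at most 0.0339 with S5_39927482, S5_43458644, S5_43813578, S5_43867748, S5_45398430 and S5_46455357. On the upper side S2_195927339 and S2_196189500, both heterozygous in Pe only, had at most 0.0722 with them. Neither was called as a partner of S2_195281745, so these values cannot tell the sides apart. S2_197694389, a called SNP of the upper side, was not among those compared. In the 59 and 58 called plants of those with most calls S2_195281745 had an r2 of 0.762 with S5_43867748 and 0.772 with S2_194922030, and in the 23 and 29 plants with few calls 0.839 and 0.759, so that both groups of plants showed it.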

How the data were processed

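The authors deposited genotype letters of plants at SNPs, called in TASSEL-GBS after mapping with Bowtie 2 (default settings), with the libraries of both enzyme pairs merged. Their own name for the table gives an imputation and a minor allele frequency filter. How many of the calls used here were imputed is unknown. The genome build was not given in the sources used here, so positions are those of the SNP names and no gene annotation or flanking sequence was used. As the deposited letters hold no read depth, limits that need it are not given. The members, the lists and most tests were chosen with earlier results of these data known.

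A heterozygous letter counted as dosage 1. Each pair of SNPs used the plants with both calls and needed 20 of them. LD between places used 1 SNP a place. Plants were permuted 100000 times with their missing calls. Entries labelled chromosome 20 were left out. As a dosage has at most 3 values, no plants were left out by distance from the median. The SNPs named are S2_195281745 and members within 1 Mb of it, its 10 best partners elsewhere, the study's associated SNPs of chromosome 5, the ends, the first member of the 5 fullest windows, the 3 members with most and with fewest disallowed calls per class, the 5 best pairs over 10 Mb apart and with other chromosomes, and the 5 lowest Mendelian p-values. The SNPs bounding the longest gap and the fullest place, and those called beyond 1 Mb, were added after their values were seen. The number of plant columns not used was 0. The closing section gives the effect of other limits on N, of 1 SNP a place, of other readings of heterozygous calls and of splits of the plants. The parental classes, allowed shares, Mendelian test, LD between places, best partners and partner test were tried on a simulated cross. That cross had no missing or wrong calls, and the other steps were not tried on it. Scripts ran in Python 3.11.15 with scipy 1.17.1, numpy 2.4.6 and pandas 2.3.3.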

Additional observations from a re-analysis of the deposited data

Results flagged for a closer look

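The plants with few calls and those with most calls differed in 4 of the comparisons within plants. The groups are those of 30 and 60 progeny split at 50% missing calls over all SNPs, which is a technical split made from the data and not a group of the study. The difference between groups was tested by permuting the plants between them (100000 permutations, two-sided, Benjamini-Hochberg over 6 tests). Heterozygous calls were lower on chromosome 2 than elsewhere by 2.52 percentage points in the plants with few calls and by 0.402 in those with most calls, which differ by -2.12 points (permutation p = 1e-05, adjusted p = 2e-05). For allowed calls the difference between the groups was -1.15 points (adjusted p = 0.00075 in the permutation test), and for heterozygous calls at opposite homozygotes -2.71 points (adjusted p = 2e-05 in the permutation test). Members below 105 Mb exceeded those above it in heterozygous calls by 4.91 points in plants with few calls and by 2.25 points in plants with most calls, which differ by 2.67 points (adjusted p = 2e-05 in the permutation test). Where only Pe or only Pa was heterozygous the groups differed by -0.794 and -0.227 points (adjusted p = 0.233 and 0.642 in the permutation test). The cause was not tested.

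Entries labelled 20, which were not used as a chromosome, held 537 widely called SNPs in 217 places. Their best partner was on chromosome 2 for 83 places (38.2%), and chromosome 2 holds 46.3% of the places of chromosomes 1 to 19. These entries were in none of the comparisons, and whether the shares differ was not tested. Of 34 such places with a best r2 of at least 0.5, 9 had it on chromosome 2.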

How the results depend on the processing

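With N in at most 10% of plants there were 2217 members, of which 44.2% were opposite homozygotes, and with 1 SNP a place 43.1% were. Members below 105 Mb, a split chosen after seeing the data, had 59.9% allowed calls, and those above it had 53.85%. With N in at most 30% of plants the allowed share differed from other chromosomes by -0.109 points, no longer past the threshold, and the heterozygous share changed direction to 0.240 points. With N in at most 10% they were -6.05 and -5.29 points, and the heterozygous share was at -1.77 with 1 SNP a place and at -0.402 and -2.52 in the plants with most and with few calls. Departures from the Mendelian ratio and from 1:1 numbered 1046 of 1364 and 2074 of 3556 members tested in the main setting. With N in at most 10% they numbered 639 of 924 and 1264 of 2217. With 1 SNP a place they numbered 438 of 544 and 804 of 1398, so these counts fell with the number of SNPs tested. In the plants with few calls, where fewer plants were tested, they numbered 380 of 1364 and 578 of 3556.

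The mean r2 at 1 to 50 kb was 0.326 over the 49 pairs heterozygous in the same parent only, which were chosen after seeing the data. Beyond 10 Mb and with other chromosomes, r2 was 0.00633 and 0.00644 as a median, 0.0214 and 0.0222 with heterozygous calls read as missing, 0.0193 and 0.0191 in the plants with most calls, and 0.0423 and 0.0429 in those with few calls. With other chromosomes it was 0.0131 and 0.0149 with N in at most 10% and 30%, 0.0145 without the second plant of near-identical pairs and 0.0144 over all members. The share of places with their best partner on chromosome 2 was 76.5% and 66.0% with N in at most 10% and 30%, 61.2% with heterozygous calls read as missing and 65.4% in the plants with few calls.

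Partners of S2_195281745 numbered 39 with 1 SNP a place (15 on chromosome 2 and 23 on chromosome 5), 51 in the plants with most calls (31 on chromosome 5) and 32 in those with few calls (10 on chromosome 2 and 22 on chromosome 5). With N in at most 10% of plants 31 were on chromosome 5. Apart from these counts, whose fall goes with fewer SNPs or plants tested, the cause of these shifts was not tested. The r2 of S2_195281745 with S2_194922030, S2_195281884 and S5_43867748 kept its call under the 7 alternatives run for each.

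No paired analysis was possible because plate numbers 1 and 2, which both enzyme pairs share, belong to libraries that were merged into 1 column per plant. This concerns pairing by plate, and the comparisons within plants did not need it. Without read counts, what depth limits could not be computed.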
